A study of Homo sapiens with 4 samples.

Results

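The genes described are 10 dual-specificity MAP kinase phosphatases, DUSP1, DUSP2, DUSP4, DUSP5, DUSP6, DUSP7, DUSP8, DUSP10, DUSP14 and DUSP16, taken by their symbols from the 24424 genes counted in each library. All 10 were listed in all 4 libraries. The cells were BEAS-2B, an immortalized human bronchial epithelial line labelled as wild type, and the RNA was sequenced from 1 library per condition. Control cells received no treatment. LPS cells received lipopolysaccharide, a cell wall component of gram-negative bacteria that activates Toll-like receptor signaling, for 2 hr. WT PDZ+LPS and mut PDZ+LPS cells were given a cell-permeable peptide from the first PDZ domain of the tight junction protein ZO-1 for 24 hr before the same 2 hr of LPS, and the mutant peptide differs in that a pair of glycines is changed to alanines. The labels give no peptide dose, and no library of peptide without LPS was analysed here, so an effect of a peptide on its own cannot be told apart from an effect on the response to LPS.

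MAP kinases (ERK, JNK and p38) are switched on when a threonine and a tyrosine in their activation loop are both phosphorylated, and the dual-specificity phosphatases switch them off by removing both phosphates. Several of the phosphatase genes are themselves transcribed in response to MAP kinase signaling, which makes them classical examples of negative feedback. DUSP1, DUSP2, DUSP4 and DUSP5 are the inducible nuclear enzymes, DUSP6 and DUSP7 are cytoplasmic and act on ERK, DUSP8, DUSP10 and DUSP16 act mainly on JNK and p38, and DUSP14 is a small atypical member without the docking domain of the others.

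The libraries held 19682929 to 25155647 counts, and counts were divided by size factors of 0.851 to 1.15 to give normalized counts. With 1 library per condition there was no replicate check and no test across conditions was possible. Each log2 ratio (of normalized counts plus 1) is given with a 95% exact binomial counting interval, which covers counting error only and compares 2 libraries, not conditions. A gene was counted as higher or lower when it differed by 2-fold or more and reached 16 normalized counts in either library. The epithelial markers (KRT5, KRT7, KRT8, KRT18, KRT19, CDH1 and EPCAM) were above 16 normalized counts in all 4 libraries, with 7 of 7 detected. Of 7 leukocyte markers 5 were detected, at a summed 731 to 897 normalized counts per library, of which CD14 and CD68 were above 16 in every library and the defining marker PTPRC was at 0 in every library. Endothelial markers summed to 5.87 to 14.1 normalized counts and fibroblast markers to 403 to 545. Of the 4 fibroblast markers, COL1A1 (288 to 422) and PDGFRB (78.7 to 121) were above 16 in every library. DCN was at 0.941 to 6.06 and COL3A1 at 0. The mut PDZ+LPS library stood apart from the others: across 12138 genes its log2 ratio to LPS fell with transcript length (Spearman's rho -0.60, a description across genes), whereas rho was 0.074 for WT PDZ+LPS/LPS. Where stated, ratios of mut PDZ+LPS are therefore also given with the trends over length and GC content removed ("after correction"). Its normalized counts are before correction. In RNA from whole cultures, fewer cells that express a gene and less of its RNA per cell cannot be told apart.

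Promoter sequences from RefSeq (GRCh38.p14) are shown for the most abundant member, the member with the largest ratio of LPS to Control and the most abundant member of the ERK-directed pair. Each is the 250 bases before the annotated start, printed 5′ to 3′ on the minus strand, from which all 3 genes are transcribed, and capitals mark matches to the motifs searched.
DUSP1, chr5:172771196-172771445: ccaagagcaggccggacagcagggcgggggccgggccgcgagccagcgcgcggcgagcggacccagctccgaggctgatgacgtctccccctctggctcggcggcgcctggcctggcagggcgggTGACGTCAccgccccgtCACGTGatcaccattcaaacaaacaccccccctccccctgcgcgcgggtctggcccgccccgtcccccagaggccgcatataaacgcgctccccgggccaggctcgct
DUSP8, chr11:1572272-1572521: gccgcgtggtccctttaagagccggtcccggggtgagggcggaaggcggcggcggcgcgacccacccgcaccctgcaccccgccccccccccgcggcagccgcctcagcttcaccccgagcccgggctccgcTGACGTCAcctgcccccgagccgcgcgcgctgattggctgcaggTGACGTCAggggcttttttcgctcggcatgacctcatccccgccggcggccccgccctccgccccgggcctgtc
DUSP6, chr12:89352502-89352751: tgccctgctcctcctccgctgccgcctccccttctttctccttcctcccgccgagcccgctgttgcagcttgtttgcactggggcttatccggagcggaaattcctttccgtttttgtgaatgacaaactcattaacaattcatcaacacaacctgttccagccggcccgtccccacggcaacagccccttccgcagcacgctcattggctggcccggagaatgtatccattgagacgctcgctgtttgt
The motifs searched on both strands were AP-1 (TGANTCA), CRE (TGACGTCA), ETS (CCGGAAG), E-box (CACGTG) and the kappa-B and CArG consensus sequences. The DUSP1 promoter held a CRE at -125 to -118 and an E-box at -108 to -103, counted from the start. The DUSP8 promoter held CRE matches at -118 to -111 and at -74 to -67, and the DUSP6 promoter held no match. Of 35116 promoters of the same length, 1.65% held the CRE and 6.34% the E-box. Promoters of 8 of the 10 members were matched (9 promoters). Among those not shown, DUSP2 held an E-box at -113 to -108 and DUSP7 a kappa-B match at -158 to -149 (9.96% of promoters held a kappa-B match), while DUSP10, DUSP14 and DUSP16 held none of the 6 motifs. DUSP4 and DUSP5 are named only. A match is a description of the letters and not of a bound site.

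In LPS compared with Control, DUSP8, DUSP6, DUSP5, DUSP16 and DUSP10 were at least 2-fold higher, and none of the 10 was at least 2-fold lower. The 5 higher members came from 9 that reached 16 normalized counts in either library, while 3.46% of the 13277 genes that did so were at least 2-fold higher and 1.41% were at least 2-fold lower. The median log2 ratio of the 9 members whose mean count reached 16 was 1.03, and the median of all genes was -0.0010. Leaving DUSP2 aside, intervals lay wholly above 0 for 7 members and wholly below 0 for DUSP4 and DUSP7, whereas 25.9% of all genes lay wholly above 0 and 21.3% wholly below.

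**Figure D1:**
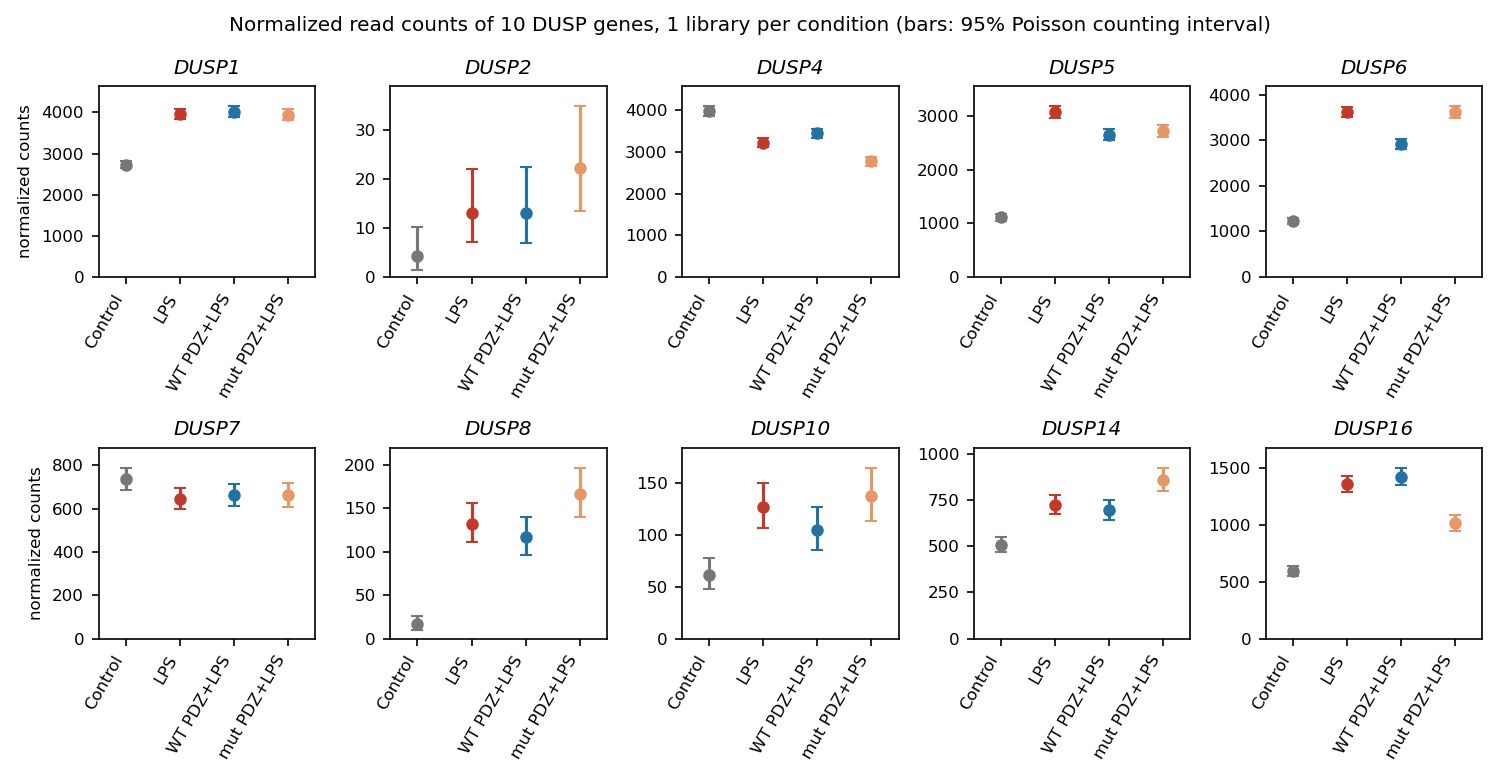
Normalized read counts of the 10 DUSP genes in the 4 libraries, with 1 point per library and bars for the 95% Poisson counting interval. DUSP5, DUSP6, DUSP8 and DUSP16 sat higher in all 3 LPS-treated libraries than in Control (DUSP6 1228 against 2915 to 3622), whereas DUSP4 was highest in Control at 3971.

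Among the inducible nuclear enzymes, DUSP1, an immediate early phosphatase that acts on p38, JNK and ERK, had 2734 normalized counts in Control against 3955 with LPS, 4019 with WT PDZ+LPS and 3943 with mut PDZ+LPS. The 3 LPS-treated libraries lay close together and above Control. Its log2 ratio in LPS/Control was 0.53 (0.47 to 0.60), a fold of 1.45, short of 2-fold.

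DUSP5, a nuclear phosphatase specific for ERK, had 1111 normalized counts in Control against 3074 with LPS, 2656 with WT PDZ+LPS and 2727 with mut PDZ+LPS. Control was the lowest and LPS the highest, with the peptide libraries between them. The log2 ratio in LPS/Control was 1.47 (1.37 to 1.56), a fold of 2.76.

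DUSP4, a nuclear enzyme that acts on ERK and JNK, had 3971 normalized counts in Control against 3225 with LPS, 3442 with WT PDZ+LPS and 2772 with mut PDZ+LPS. It was highest in Control, where DUSP1 and DUSP5 were lowest, and before correction it was lowest in mut PDZ+LPS. After correction mut PDZ+LPS/Control was at -0.27, and LPS/Control was at -0.32 with the same correction. The uncorrected log2 ratio of DUSP4 in LPS/Control was -0.30 (-0.36 to -0.24). DUSP2, best known from activated lymphoid cells, was near the detection limit, with raw counts of 5 in Control against 14 with LPS, 13 with WT PDZ+LPS and 19 with mut PDZ+LPS. The log2 ratio of DUSP2 in LPS/Control was 1.40 with a wide interval (0.043 to 3.42), and it did not reach 16 normalized counts in either library.

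Of the ERK-directed cytoplasmic pair, DUSP6 had 1228 normalized counts in Control against 3622 with LPS, 2915 with WT PDZ+LPS and 3612 with mut PDZ+LPS. Before correction the libraries without peptide and with the mutant peptide were level after LPS, WT PDZ+LPS lay below them, and Control was far lower. After correction mut PDZ+LPS/LPS was at 0.21 (0.14 to 0.28). The log2 ratio in LPS/Control was 1.56 (1.47 to 1.65), a fold of 2.95. DUSP7, its closest relative in this set by substrate and location, had 736 normalized counts in Control against 645 with LPS, 661 with WT PDZ+LPS and 663 with mut PDZ+LPS. The members of the pair thus differed in direction, with DUSP7 at a log2 ratio of -0.19 (-0.34 to -0.043) in LPS/Control.

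All 3 phosphatases directed mainly at JNK and p38 were at least 2-fold higher in LPS than in Control. DUSP8 had 16.5 normalized counts in Control against 133 with LPS, 117 with WT PDZ+LPS and 167 with mut PDZ+LPS. It was barely above the threshold of 16 in Control and its log2 ratio of 2.93 (2.31 to 3.78), a fold of 7.62 that rests on 19 raw counts in Control, was the largest of the 10 members. DUSP16 had 591 normalized counts in Control against 1357 with LPS, 1425 with WT PDZ+LPS and 1015 with mut PDZ+LPS, with a log2 ratio of 1.20 (1.07 to 1.33) in LPS/Control. DUSP16 was lowest in Control and intermediate in mut PDZ+LPS. DUSP10 had 61.8 normalized counts in Control against 127 with LPS, 105 with WT PDZ+LPS and 137 with mut PDZ+LPS, and its log2 ratio of 1.03 (0.61 to 1.47) stood at the threshold, dropping under 2-fold with total-count scaling, upper-quartile scaling or a pseudocount of 5.

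DUSP14, the atypical member, had 507 normalized counts in Control against 724 with LPS, 694 with WT PDZ+LPS and 859 with mut PDZ+LPS. Control was the lowest and mut PDZ+LPS the highest. The log2 ratio in LPS/Control was 0.51 (0.36 to 0.67), similar in size to that of DUSP1.

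**Figure D2:**
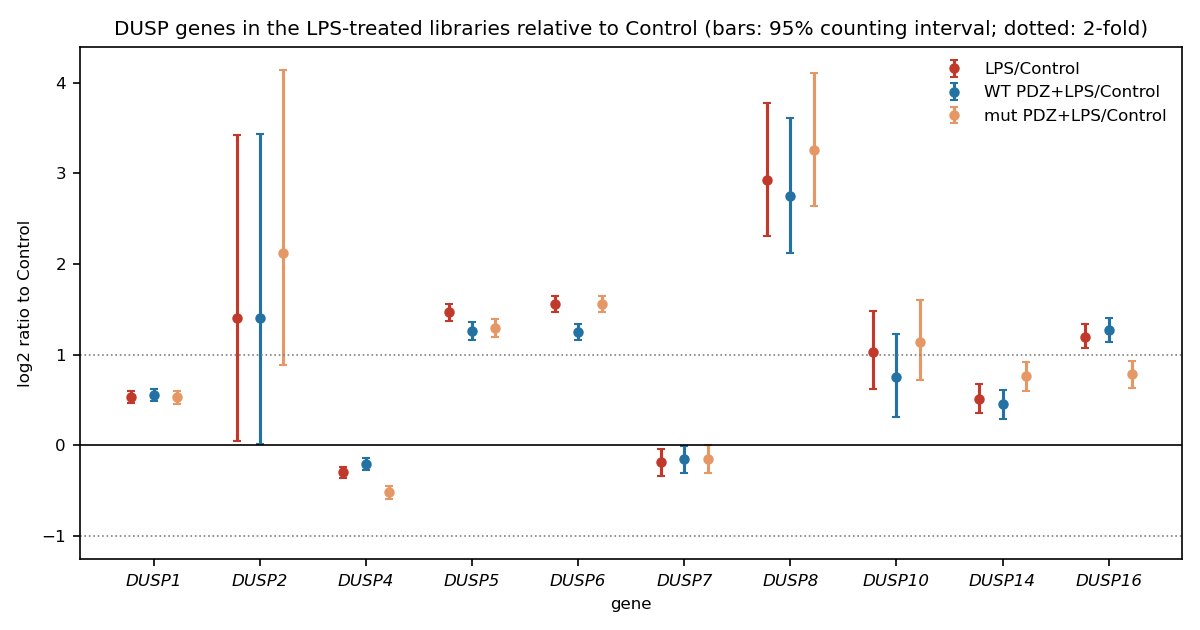
Log2 ratio to Control of each DUSP gene in the 3 LPS-treated libraries (LPS red, WT PDZ+LPS blue, mut PDZ+LPS orange), with bars for the 95% counting interval and dotted lines at 2-fold. DUSP8 lay highest in all 3 comparisons (2.93, 2.75 and 3.26), and DUSP4 lay below 0 in all 3 (-0.30, -0.21 and -0.52).

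The comparisons of WT PDZ+LPS and mut PDZ+LPS with Control share the Control library with LPS/Control, so their values are given side by side. In WT PDZ+LPS/Control, 4 members were at least 2-fold higher, DUSP5, DUSP6, DUSP8 and DUSP16, where 3.28% of all genes were, and none was lower, where 1.42% were. The log2 ratio was 1.26 (1.16 to 1.35) for DUSP5, 1.25 (1.15 to 1.34) for DUSP6, 2.75 (2.12 to 3.61) for DUSP8 and 1.27 (1.14 to 1.40) for DUSP16. DUSP10 had a log2 ratio of 0.76 (0.32 to 1.22), under the threshold. Apart from DUSP2, intervals of 7 members lay wholly above 0 and those of DUSP4 and DUSP7 below, where 26.7% of all genes lay above and 20.4% below.

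In mut PDZ+LPS/Control, 5 members were at least 2-fold higher, DUSP2, DUSP5, DUSP6, DUSP8 and DUSP10, where 5.13% of all genes were, and none was lower, where 2.96% were. DUSP2 entered through 19 counts against 5, at a log2 ratio of 2.12 (0.89 to 4.14). DUSP16, with the longest transcript of the JNK and p38 group, was at 0.78 (0.63 to 0.93) before correction and at 1.04, past 2-fold, after it. Intervals of 8 members lay wholly above 0, that of DUSP4 lay below and that of DUSP7 covered 0, where 32.6% of all genes lay above and 34.7% below. The median of the members was 0.76 for WT PDZ+LPS/Control, beside 0.010 for all genes, and 0.78 for mut PDZ+LPS/Control, beside -0.018.

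WT PDZ+LPS/LPS compares LPS-treated cells with and without the wild-type peptide. None of the 10 members differed by 2-fold, where 0.635% of all genes were higher by 2-fold or more and 0.733% lower. DUSP6, at 2915 normalized counts against 3622, had the lowest log2 ratio, -0.31 (-0.38 to -0.24), and was 1.24-fold lower. DUSP5, at 2656 against 3074, had -0.21 (-0.29 to -0.14) and was 1.16-fold lower. Both stayed more than 2-fold above Control. DUSP1, DUSP4 and DUSP7, which like DUSP5 and DUSP6 act on ERK, were at 0.023, 0.094 and 0.036. A relation to ERK was not tested.

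The interval for DUSP4 lay above 0 at 0.094 (0.025 to 0.16), a fold of 1.07. Intervals of the other 7 members covered 0, and 12.1% of all genes had intervals wholly above 0 and 10.2% wholly below. DUSP1 was the most tightly bounded at 0.023 (-0.040 to 0.086), and DUSP16 was at 0.070 (-0.037 to 0.18). DUSP8 was at -0.18 (-0.55 to 0.19) and DUSP10 at -0.27 (-0.66 to 0.11), on 104 to 141 counts, and both intervals included 0 as well as the value of DUSP6.

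In mut PDZ+LPS/LPS none of the 10 members differed by 2-fold, where 2.05% of all genes were higher by 2-fold or more and 1.9% lower. DUSP2 was the furthest from LPS at 0.72 (-0.31 to 1.87), on 19 counts against 14, and was at 0.20 after correction. Next was DUSP16 at -0.42 (-0.54 to -0.30), and at -0.13 after correction. DUSP4, which also has a long transcript, was at -0.22 (-0.29 to -0.14) and at 0.047 after correction. DUSP6 was level with LPS, at -0.0039 (-0.073 to 0.065), and at 0.21 after correction.

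DUSP5 was at -0.17 (-0.25 to -0.096) in mut PDZ+LPS/LPS and at -0.32 after correction, on the same side of 0 as in WT PDZ+LPS/LPS. Both comparisons share the LPS library, so they are not independent. DUSP14, with one of the shorter transcripts, was at 0.25 (0.098 to 0.39) and at 0.13 after correction. DUSP1, the other short abundant transcript, moved from -0.0041 (-0.070 to 0.062) to -0.24 with the correction. DUSP2, DUSP7, DUSP8 and DUSP10 had intervals that covered 0 before correction and after it. Before correction DUSP14 lay wholly above 0 and DUSP4, DUSP5 and DUSP16 wholly below, where 28.8% of all genes lay above and 33.7% below.

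**Figure D3:**
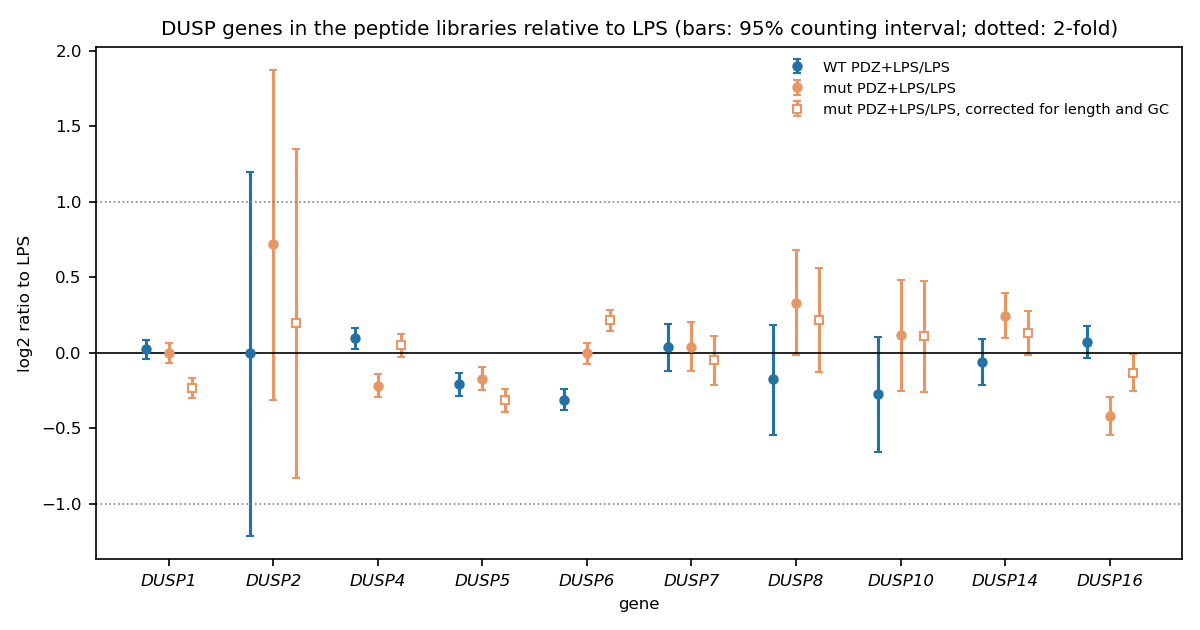
Log2 ratio to LPS of each DUSP gene in WT PDZ+LPS and mut PDZ+LPS (filled) and in mut PDZ+LPS after correction (open), with bars for the 95% counting interval and dotted lines at 2-fold. All points lay inside the 2-fold lines, DUSP6 stood at -0.31 for WT PDZ+LPS and at -0.0039 for mut PDZ+LPS before correction, and DUSP4 and DUSP16 moved toward 0 with the correction (from -0.22 to 0.047 and from -0.42 to -0.13).

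The peptides were given for the same 24 hr and differ by the glycine to alanine change, and mut PDZ+LPS/WT PDZ+LPS compares them directly. None of the 10 members differed by 2-fold, where 2.12% of all genes were higher by 2-fold or more and 2.14% lower. DUSP6 was 1.24-fold higher with the mutant peptide, at 0.31 (0.24 to 0.38), and at 0.53 (0.45 to 0.60) after correction. DUSP8 was 1.42-fold higher, at 0.51 (0.15 to 0.88), and at 0.40 (0.040 to 0.77) after correction. DUSP14 was 1.24-fold higher, at 0.31 (0.16 to 0.46), and at 0.19 (0.035 to 0.34) after correction.

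DUSP16 was 1.40-fold lower with the mutant peptide, at -0.49 (-0.61 to -0.37), and at -0.20 (-0.32 to -0.074) after correction. DUSP4 was 1.24-fold lower, at -0.31 (-0.39 to -0.24), and its interval covered 0 after correction (-0.12 to 0.035). For the other 5 members the uncorrected interval covered 0, from DUSP7 at 0.0028 (-0.16 to 0.17) and DUSP5 at 0.038 (-0.043 to 0.12) to DUSP2 at 0.72 (-0.33 to 1.91). After correction, intervals lay wholly below 0 for DUSP1, at -0.27 (-0.34 to -0.21), and for DUSP5, at -0.12 (-0.20 to -0.042), and still covered 0 for DUSP2, DUSP7 and DUSP10. An interval that covers 0 does not show that the peptides acted alike on a gene. Across all genes 29.4% of intervals lay wholly above 0 and 34.0% wholly below, so intervals clear of 0 were common in this comparison.

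Levels can be set between genes only per transcript length, so normalized counts were divided by the length of the longest protein-coding transcript in kb. The levels, ranks and shares of mut PDZ+LPS are before correction, so they carry its trend over length. DUSP1 had the highest per-kb level of the 10 in every library, 1354 in Control and 1953 to 1991 in the LPS-treated libraries. In Control it was followed by DUSP4 (717 per kb), DUSP5 (435), DUSP6 (279), DUSP14 (230), DUSP7 (220), DUSP16 (112), DUSP10 (23.1), DUSP8 (3.69) and DUSP2 (2.58). In LPS the order below DUSP1 was DUSP5 (1202 per kb), DUSP6 (823), DUSP4 (582), DUSP14 (328), DUSP16 (258), DUSP7 (193), DUSP10 (47.5), DUSP8 (29.6) and DUSP2 (7.80).

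DUSP4 thus stood at rank 2 in Control and at rank 4 in all 3 LPS-treated libraries, and DUSP5 moved from rank 3 to rank 2. Counting intervals of neighbours in this order overlapped for DUSP14 and DUSP7 and for DUSP8 and DUSP2 in Control, and for no neighbours in LPS. They also overlapped for DUSP6 and DUSP4 in WT PDZ+LPS, and for DUSP7 and DUSP16 and for DUSP10 and DUSP8 in mut PDZ+LPS.

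Summed over the 10 genes, the per-kb level was 3377 in Control against 5431 with LPS, 5170 with WT PDZ+LPS and 5224 with mut PDZ+LPS. DUSP1 made up 40.1% of the sum in Control and 36.1% in LPS. The share of DUSP4 was 21.2% in Control and 9.58% to 12.0% in the LPS-treated libraries, while the share of DUSP5 was 12.9% in Control and 20.1% to 22.1% in those libraries. DUSP6 and DUSP7 together held 14.8% in Control and 18.7% in LPS, and DUSP8, DUSP10 and DUSP16 together held 4.12% and 6.18%. DUSP14 alone held 6.81% in Control and 6.04% in LPS. The 3 enzymes directed mainly at JNK and p38 together thus stood below DUSP14 in Control. In LPS they were about level with it, at 335 against 328 per kb, inside the counting interval of DUSP14 (305 to 352). Their share against that of DUSP14 was 6.51% against 6.08% in WT PDZ+LPS and 5.40% against 7.45% in mut PDZ+LPS.

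**Figure D4:**
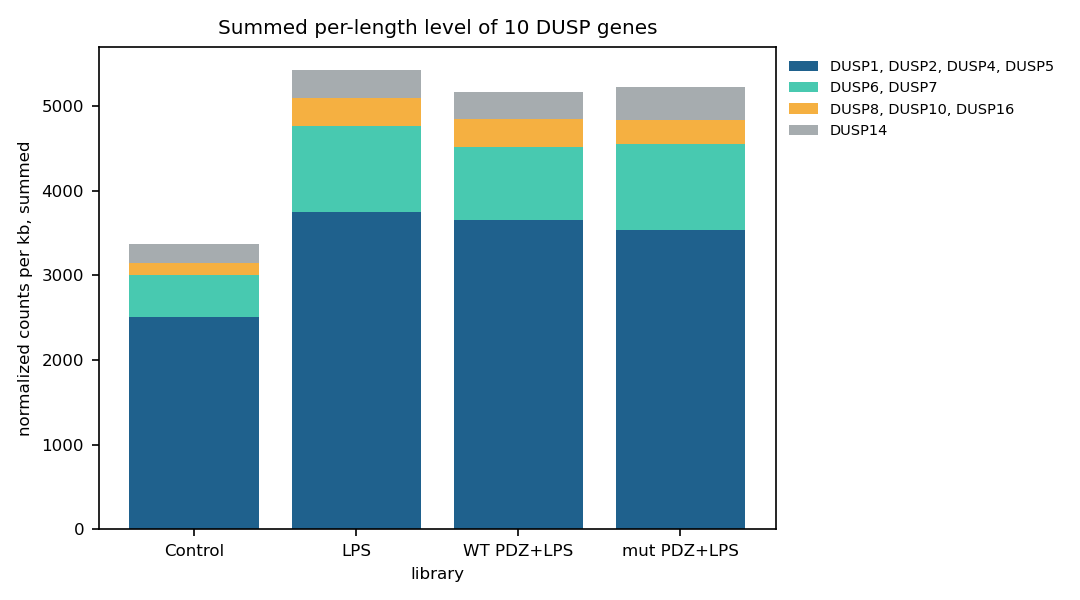
Summed normalized counts per kb of the 10 DUSP genes in each library, stacked by group, with 1 library per bar and mut PDZ+LPS before correction. The sum was 3377 in Control and 5170 to 5431 in the LPS-treated libraries, and DUSP1, DUSP2, DUSP4 and DUSP5 together formed the largest block in each, at 67.6% to 74.3%.

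The 3′ untranslated regions of the members differed in the pentamer ATTTA, the core of AU-rich elements that are known to destabilize transcripts. In the longest protein-coding GENCODE transcript, DUSP1 held 4 copies, or 5.95 per kb, a density reached by 5.48% of 12077 genes. DUSP14 held 3 copies (4.75 per kb) and DUSP2 held 3 (4.57 per kb), whereas DUSP5 and DUSP7 held none. DUSP6 held 1 copy in 2022 bases.

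The octamer of ATTTA flanked by TT and T was present in DUSP1, DUSP4 and DUSP8, and in 17.4% of genes. Windows of 30 bases around overlapping copies are shown for the most abundant member and the member with the largest LPS ratio, with ATTTA in capitals.
DUSP1: agggctggtccttATTTATTTAacttcacc
DUSP8: atttcgattttttATTTATTTAagctgttc
In all, 8 of the 10 members held ATTTA, where 73.3% of genes did. Of the members at least 2-fold higher in LPS, DUSP5 held 0 copies, DUSP6 1, DUSP10 3, DUSP8 4 and DUSP16 5. Of the others, DUSP7 held 0, DUSP2 and DUSP14 3 each, DUSP1 4 and DUSP4 6. A relation between copies and the LPS ratio was not tested.

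Other genes of the MAP kinase pathway were counted by lists. Of 16 other dual-specificity phosphatases, 12 reached the expression threshold and none was at least 2-fold higher or lower in LPS/Control, with a median log2 ratio of 0.042 beside 1.03 for the 9 members described above. In WT PDZ+LPS/Control DUSP15 was at -1.11 (-2.06 to -0.32), on 17 counts against 44, where 1.42% of all genes were at least 2-fold lower. Of 6 other MAP kinase phosphatases, 3 reached the threshold and none was higher or lower.

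Of the MAP kinases, on which the DUSP members act, 0 of 11 expressed genes were at least 2-fold higher or lower in LPS/Control (median 0.11). Of 7 MAP2 kinases only MAP2K3, which activates p38, was higher, at 1147 normalized counts in Control against 4089 with LPS, 3753 with WT PDZ+LPS and 4221 with mut PDZ+LPS. Its log2 ratio in LPS/Control was 1.83 (1.74 to 1.92). Of 22 expressed MAP3 kinases only MAP3K8 was higher, a kinase upstream of ERK in Toll-like receptor signaling, with 337, 3215, 2726 and 3083 normalized counts in the same order.

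MAP3K8 had a log2 ratio of 3.25 (3.10 to 3.41) in LPS/Control and stood at -0.24 (-0.31 to -0.16) for WT PDZ+LPS/LPS. Its LPS/Control ratio was above that of every DUSP member but inside the interval of DUSP8 (2.31 to 3.78), so their order is not resolved. BRAF and TAOK1 were at least 2-fold lower in mut PDZ+LPS/LPS, at -1.03 and -1.12, where 1.9% of all genes were. After correction they were at -0.54 and -0.57. None of 11 MAPK-activated kinases and none of 6 expressed scaffolds was at least 2-fold higher or lower in LPS/Control.

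Sprouty and Spred proteins are feedback inhibitors of receptor tyrosine kinase signaling to ERK. Their list also holds IL17RD, which is neither. Of its 7 expressed genes, SPRY1 and SPRY2 were at least 2-fold lower in LPS/Control and none was at least 2-fold higher. The median log2 ratio was 0.14. The other 5 lay above 0, up to SPRY4 at 0.95 (0.75 to 1.15), a member outside the rule for named genes that was chosen after its value was seen. SPRY2 had 2150 normalized counts in Control against 943 with LPS, 964 with WT PDZ+LPS and 838 with mut PDZ+LPS, with a log2 ratio of -1.19 (-1.30 to -1.08). SPRY1 was at -1.31 (-1.77 to -0.90). IL17RD was at -1.83 in mut PDZ+LPS/LPS on 10 counts against 47, and at -1.34 after correction.

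Of 10 transcripts known to respond to ERK, 5 were at least 2-fold higher in LPS/Control (IER3, PHLDA1, FOSL1, HBEGF and MYC) and none was lower, with a median log2 ratio of 1.03. The ratio was 1.96 (1.89 to 2.04) for IER3, 1.80 (1.74 to 1.86) for PHLDA1 and 1.29 (1.18 to 1.39) for FOSL1. EGR1, FOS, ETV4 and ETV5, named after their values were seen, were the 4 of the 10 below 0, on the other side from DUSP5 and DUSP6. EGR1 had 3926 normalized counts in Control against 2038 with LPS, 2276 with WT PDZ+LPS and 2749 with mut PDZ+LPS. Its log2 ratio was -0.95 (-1.02 to -0.87). FOS was at -0.26 (-0.55 to 0.031), ETV4 at -0.37 (-0.57 to -0.17) and ETV5 at -0.12 (-0.25 to 0.013).

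**Figure D5:**
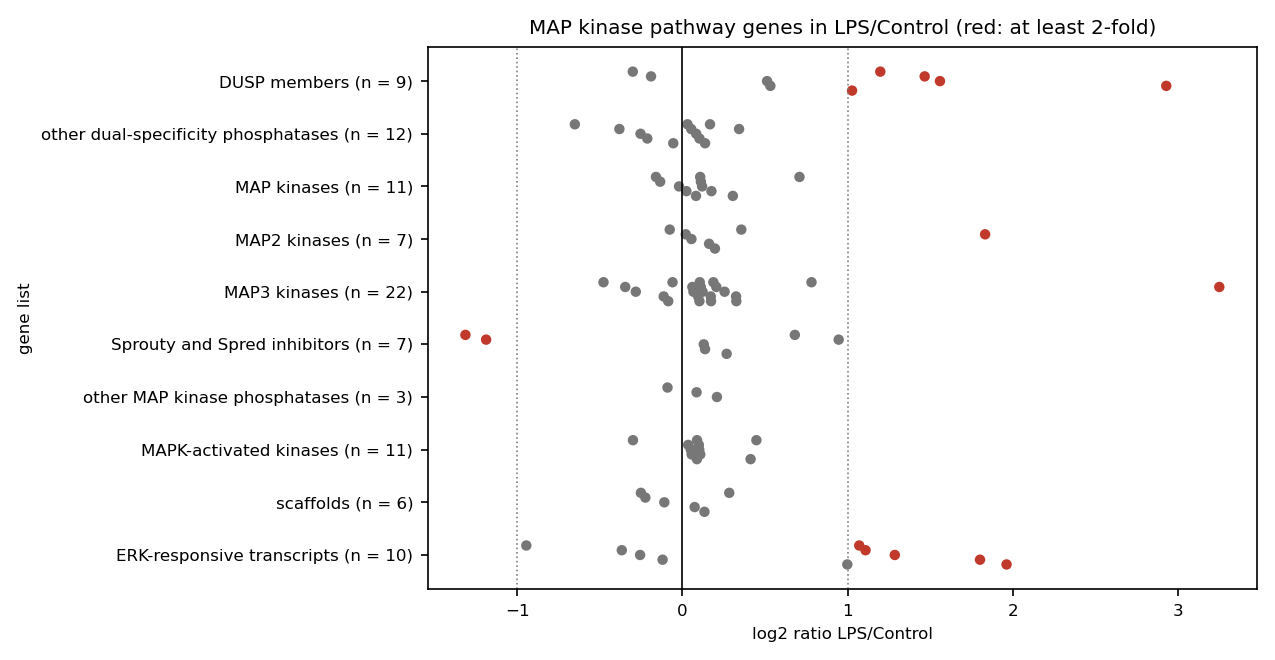
Log2 ratio in LPS/Control of the DUSP members and 9 lists of MAP kinase pathway genes, with 1 point per gene that reached the expression threshold, red at a fold of at least 2 and grey otherwise. The DUSP members (5 of 9) and the ERK-responsive transcripts (5 of 10) held red points on the higher side, the Sprouty and Spred list held 2 on the lower side, and the MAP2 and MAP3 kinase lists held 1 each.

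For each member at least 2-fold higher in LPS, the genes with the most similar pattern were found by the Euclidean distance over the 3 log2 ratios to Control, among 11438 genes whose mean reached 64 normalized counts. They were TIFA (0.028) and IRS2 (0.067) for DUSP5, GBP1 (0.099) and EHD1 (0.13) for DUSP6, and MSC (0.089) and EFNA1 (0.11) for DUSP8. KLF6 (0.048) and BAHCC1 (0.059) were nearest to DUSP10, and CYP1B1 (0.17) and PLAGL2 (0.17) to DUSP16. The distance counts only 3 ratios that share the Control library. The ratios are before correction, so that of mut PDZ+LPS/Control carries its trend over length (Spearman's rho -0.45). For DUSP16 that ratio was 0.78 before correction and 1.04 after it. Distances after correction were not computed.

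Some reads could belong to overlapping genes, since the setting for strand in the counting is not given in the sources used here. KRTAP5-AS1, on the opposite strand of DUSP8, had 0 counts in every library, where a count of 0 allows up to 3 counts. Antisense or long noncoding genes annotated opposite DUSP1, DUSP6 and DUSP16 were not analysed here, so reads of those genes and of the phosphatases cannot be told apart.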

How the data were processed

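RNA of BEAS-2B cells was extracted with Trizol, poly(A)-selected and made into libraries with the NEBNext Ultra II Directional kit. The authors checked the reads with FastQC, trimmed adapters and low-quality bases with FASTX_Trimmer and BBMap, mapped them with TopHat and deposited raw counts per gene symbol. The submitters' processing notes name hg19; the counting tool, annotation and strand setting are not given in the sources used here. The study's methods name FPKM and geometric normalization, but the deposited counts are whole numbers with different totals, so they were used as raw counts. In the order Control, LPS, WT PDZ+LPS, mut PDZ+LPS, the libraries held 24823347, 25155647, 23446600 and 19682929 counts.

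Geometric size factors (1.15, 1.06, 0.990 and 0.851) came from DESeq2 1.42.0 in R 4.3.3, with no test fitted. Ratios used a pseudocount of 1, and the 95% counting intervals are Clopper-Pearson binomial intervals for the raw counts of 2 libraries, shifted by the size factors. They cover only counting error: no molecular identifiers were read, and reads are not independent molecules. For the correction, lowess trends (span 0.3) were subtracted, over length and then over GC content (longest coding transcript, GENCODE 29), available for 12138 of the 13072 genes whose mean reached 16 normalized counts. All 6 pairs of conditions were compared. The members and gene lists were chosen with earlier results of these data known. Named genes were the 10 members, per list the up to 3 genes of largest ratio among those at least 2-fold different in LPS/Control and up to 2 from the peptide comparisons, and the 2 nearest patterns per member. Alternatives were total-count scaling, upper-quartile scaling, TMM (edgeR 4.0.16), size factors without mut PDZ+LPS, a pseudocount of 5, no expression rule, a rule of 64, folds of 1.5 and 3, and the correction. The calculations were tested on simulated data. Python 3.11.15 was run with matplotlib 3.10.9, statsmodels 0.14.6, scipy 1.17.1, pandas 2.3.3 and numpy 2.4.6.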

Additional observations from a re-analysis of the deposited data

Results flagged for a closer look

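DUSP4 lay above LPS in WT PDZ+LPS (log2 ratio 0.094) and below LPS in mut PDZ+LPS (-0.22), so that the peptide libraries moved in opposite directions, with a log2 ratio of -0.31 in mut PDZ+LPS/WT PDZ+LPS. The difference was not tested, with 1 library per condition. With the trends over length and GC content removed, the ratio was -0.041, and mut PDZ+LPS/LPS was 0.047.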

How the results depend on the processing

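No paired analysis was possible because each condition has 1 library. No member ratio of at least 2-fold changed sign under any alternative. Without the expression rule the median of the members was 0.96 for mut PDZ+LPS/Control, against 0.78, and that of mut PDZ+LPS/WT PDZ+LPS was 0.17, against 0.038, since DUSP2 then entered. With the correction for length and GC content the median for mut PDZ+LPS/Control was 1.04. At a fold of 1.5, 1 member (DUSP2) was higher for mut PDZ+LPS/LPS, against 0, and 1 (DUSP2) when mut PDZ+LPS was set against WT PDZ+LPS, also against 0. These DUSP2 values rest on 19 counts against 14 and 13. Their intervals covered 0 (-0.31 to 1.87 and -0.33 to 1.91), and both were 0.20 after correction. At that fold 5 members against 4 were higher for WT PDZ+LPS/Control, with DUSP10 added, and 7 against 5 for mut PDZ+LPS/Control, with DUSP14 and DUSP16 added. At a fold of 3, 1 member (DUSP8) was higher in LPS/Control against 5, 1 (DUSP8) for WT PDZ+LPS/Control against 4, and 2 (DUSP2 and DUSP8) for mut PDZ+LPS/Control against 5. The shares of all genes past folds of 1.5 and 3 are not given here, so these counts cannot be read against them. Of 60 member ratios, all stayed inside their counting intervals under TMM, upper-quartile scaling, size factors without mut PDZ+LPS and a pseudocount of 5, 12 moved outside under total-count scaling, which put the LPS/Control median of all genes at -0.13, and 15 under the correction. The sign changed for 3 ratios under total-count scaling, 3 under upper-quartile scaling, 1 with size factors without mut PDZ+LPS and 5 under the correction. Alternatives for the pathway lists, their named genes and the counts of intervals were chosen after seeing the data. Depth limits DUSP2 most, with 5 to 19 counts, and DUSP8 in Control, with 19.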
